A study of Mus musculus with 6 samples.

Results

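The RNA of 10 integrin subunit genes was followed in ILCPs, the innate lymphoid cell precursors of mouse bone marrow, from which innate lymphoid cells develop. The genes were chosen by name and were Itga4, Itgb7, Itgb1, Itgae, Itgal, Itgb2, Itgav, Itgb3, Itga2b and Itga6. All 10 were found among the 16383 genes of the table, and all 10 had enough counts to be tested.

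Integrins are surface receptors built from 1 alpha and 1 beta chain, through which cells hold on to other cells and to extracellular matrix. The chains choose their partners: alpha4 pairs with beta7 or beta1, alphaE with beta7, alphaL with beta2, alphaV with beta3 or beta1, alphaIIb with beta3, and alpha6 with beta1. In lymphoid progenitors alpha4beta7, the receptor for the gut addressin MAdCAM-1, serves as a surface mark of commitment to the innate lymphoid lineage, and alpha4beta1 binds VCAM-1 of the marrow stroma.

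All libraries came from Rag1cre;ET-2 mice of the C57BL/6 strain, so both groups carried the Cre and the ET-2 transgene. ET-2 is known as a fusion of activation domains of an E protein with the DNA-binding region of TAL1. GFP+ ILCPs had switched ET-2 on and GFP- ILCPs of the same marrow had not, with 3 libraries of each. Each replicate was a pool of 4 to 5 mice, and its pool gave 1 GFP+ and 1 GFP- library, called a pair here. Switching on ET-2 follows Cre driven from Rag1, so a history of Rag1 activity and the transgene itself cannot be told apart, and no library came from mice without ET-2. The sort kept cells with alpha4beta7 on their surface in both groups, together with IL7Ralpha and CD90, and left out cells with CD25, Flt3 or lineage markers. The comparison of the groups asked whether expression of ET-2 goes with other RNA levels in these precursors.

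The libraries held 10432461 to 19038554 estimated counts, and 11278 to 15030 genes had a count above 0. GFP+ replicate 3 had both the lowest total and the fewest genes. Markers of the sorted cells were present, with Il7r, the IL-7 receptor chain, at 1255 to 2674 CPM and Thy1, which encodes CD90, at 184 to 504 CPM (CPM, the estimated counts of a gene as a share of its library's total, with TMM scaling between libraries). Il2ra, which encodes the CD25 that the sort selected against, was also measured, at 151, 395 and 2012 CPM in the GFP+ libraries and 176, 323 and 339 CPM in the GFP- libraries, highest in GFP+ replicate 3. Of 13 ILC precursor genes, only Pdcd1 in GFP+ replicate 3 was at 0 in any library.

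GFP+ replicate 3 also stood apart in markers of other cells. The 8 measured B cell and plasma cell markers summed to 10506 CPM there, against 428 to 549 CPM in the other GFP+ libraries and 578 to 1374 CPM in GFP- libraries. In that library Ighm stood at 9613 CPM and Jchain at 794 CPM, while Pax5 was at 0, as it was in 2 of the GFP- libraries. The 8 NK cell markers, Ncr1, Klrb1c, Eomes, Klrd1, Prf1, Gzma, Klra8 and Klra4, were all at 0 in it, against sums of 88.9 to 192 CPM in the other GFP+ and 89.4 to 217 CPM in the GFP- libraries. Of these 8, 2 had a log2 fold change above 0 and 6 below. Gzma was at 0 in 3 of 3 GFP+ libraries and at 5.23 to 8.25 CPM in the GFP- libraries. It passed the count filter only through the GFP- libraries, so no p is given. Ncr1 was at 0 to 14.7 against 17.8 to 40.4 CPM. The groups of both did not overlap, as for 6.04% of tested genes in this direction. Klra8 was above 0, at 2.78, 143 and 0 CPM in GFP+ and 2.45, 0 and 1.40 CPM in GFP- replicates 1, 2 and 3 (edgeR unadjusted p = 0.0455, adjusted p = 0.998). The 3 neutrophil markers summed to 712 CPM in GFP+ replicate 3, against 0.33 to 48.3 CPM in the other GFP+ and 18.5 to 166 CPM in the GFP- libraries. The 5 macrophage and monocyte markers ranged from 33.1 to 907 CPM in GFP+ and from 132 to 273 CPM in GFP- libraries, and none was at 0 anywhere. Sums of the 7 mast cell and basophil markers were 391 to 1209 and 204 to 944 CPM. Fcer1a was at 0 in 3 of 3 GFP+ libraries and at 0.551 to 19.3 CPM in GFP- libraries. It was not among the genes tested by edgeR, of which 6.04% had groups that did not overlap in this direction. Cpa3, the highest of the mast cell and basophil markers, went the other way, at 328, 1199 and 973 CPM in GFP+ and 149, 161 and 497 CPM in GFP- replicates 1, 2 and 3. It was higher in GFP+ in 3 of 3 pairs, as were 8.46% of tested genes (edgeR unadjusted p = 0.0368, adjusted p = 0.998). Of the 6 tested markers of this list, 1 had a log2 fold change above 0 and 5 below. Sums of the 8 T cell markers were 75.9 to 443 and 157 to 270 CPM, with Cd3e, Cd3g and Cd5 at 0 in GFP+ replicate 3. The 8 ILC2 genes summed to 2435 to 6718 CPM in GFP+ and 2317 to 3518 CPM in GFP- libraries, with Il5 at 0 in GFP+ replicates 2 and 3. Of these genes 3 had a log2 fold change above 0 and 5 below. Il1rl1, the highest of them, stood at 588, 838 and 2806 CPM in GFP+ and 288, 392 and 400 CPM in GFP- replicates 1, 2 and 3. Its groups did not overlap, as for 3.16% of tested genes in this direction (edgeR unadjusted p = 0.0133, adjusted p = 0.998). The 7 erythroid genes summed to 0 to 95.2 and 2.72 to 38.4 CPM, and all were at 0 in GFP+ replicate 2. The part of these markers in the integrin values was not tested, and in bulk RNA fewer cells of a type and less RNA per cell cannot be told apart.

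None of the 10 integrin genes differed between GFP+ and GFP- ILCPs beyond the spread between libraries. edgeR's quasi-likelihood test called 0 of 10 with Benjamini-Hochberg adjustment, where it called 0% of all 12199 genes tested. None of the 10 had an unadjusted p under 0.05, which 3.23% of all genes had. DESeq2 called 0 of the 10 and 61 other genes, 0.427% of those with an adjusted p. With the replicate number as a block, which pairs the libraries of a pool, none of the 10 was called either, against 1.35% of all genes in DESeq2 and 0% in edgeR, and none had an unadjusted edgeR p under 0.05, against 1.71%. The authors' deposited table likewise lists none of the 10 at an adjusted p under 0.05, against 0.703% of the genes it gives one for. The fold changes split evenly, with 5 genes above 0 and 5 below, and their median on the log2 scale was 0.018, against −0.028 over all genes tested. The groups overlapped for all 10 genes, and none was higher or lower in GFP+ ILCPs in all 3 pairs. Over all genes tested 8.46% were higher and 15% lower in 3 of 3 pairs. All GFP+ libraries were above all GFP- libraries for 3.16% of them and below for 6.04%, so most genes overlapped. These tests could miss differences of moderate size, since the standard errors of the 10 log2 fold changes ran from 0.48 for Itgb2 to 2.00 for Itgae.

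Set side by side per kilobase of the longest annotated transcript, the integrin genes spanned a wide range of levels. Itga4 stood highest, with a mean over the 6 libraries of 394 CPM per kb. Below it came Itgal at 167, Itgb3 at 118, Itgb2 at 77.8, Itgb7 at 58.4 and Itgb1 at 25.8 CPM per kb. Itga6 and Itgav stood at 13.1 and 9.84 CPM per kb, and Itga2b and Itgae were lowest at 2.84 and 2.82 CPM per kb. Itga4 was above Itgal in 6 of 6 libraries. Each step from Itgal down to Itgb1 kept its direction in 5 of 6 libraries. Itgb1 and Itga6, and Itga6 and Itgav, kept their order in 4 of 6, and Itga2b and Itgae in 3 of 6. For every step in this order the ranges of both genes over the libraries overlapped. With the union of exons as length the first 6 places were unchanged, while Itgav stood above Itga6 and Itgae above Itga2b.

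**Figure D1:**
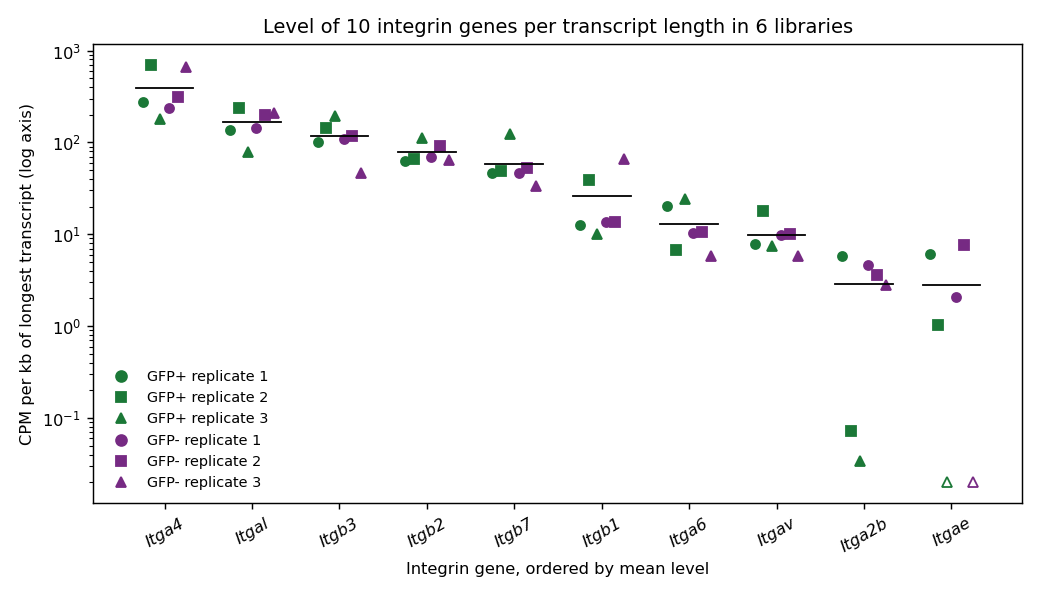
Level of each integrin gene in CPM per kb of its longest annotated transcript, on a log axis. Each point is 1 library (green GFP+, purple GFP-; circles, squares and triangles are replicates 1, 2 and 3), black lines are means over the 6 libraries, and open symbols drawn at the foot are libraries with 0 counts. Itga4 leads at a mean of 394 CPM per kb, and Itga2b and Itgae lie lowest with the widest scatter.

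Itga4 encodes alpha4, the alpha chain that the sort selected on together with beta7. It lies on chromosome 2 at 79255426 to 79333123, plus strand, in GRCm38 (GENCODE vM21). Its levels were 2668, 6830 and 1778 CPM in GFP+ replicates 1, 2 and 3 and 2289, 3061 and 6448 CPM in GFP- replicates 1, 2 and 3. The highest value was in GFP+ replicate 2, close to that of GFP- replicate 3, and the lowest was in GFP+ replicate 3. The means were 3758 ± 2697 and 3933 ± 2213 CPM (SD, n = 3 each), with a log2 fold change of −0.06 ± 0.67 (SE; edgeR unadjusted p = 0.926). On the opposite strand the gene overlaps Cerkl, which did not exceed 37.5 CPM, and reads of both cannot be told apart if strand was not kept.

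Itgb7 encodes beta7, the beta chain of alpha4beta7 and alphaEbeta7. The gene is on the minus strand of chromosome 15, from 102215995 to 102231944. Its levels were 125, 131 and 329 CPM in the GFP+ libraries and 126, 140 and 89.2 CPM in the GFP- libraries, in the order of replicates 1, 2 and 3. Apart from the high value of GFP+ replicate 3 and the low value of GFP- replicate 3, the libraries lay within a narrow band. The means were 195 ± 116 and 118 ± 26.1 CPM (SD, n = 3 each), with a log2 fold change of 0.73 ± 0.55 (SE; edgeR unadjusted p = 0.214). Pairs 1 and 2 differed by −0.004 and −0.095 log2 units and pair 3 by 1.88, and without replicate 3 of both groups the log2 fold change was −0.054.

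The start regions of these 2 genes are shown because their chains define the sorted cells and because E proteins and TAL1 bind the E-box CANNTG as dimers. They are RefSeq promoters on GRCm38.p6, 250 bases before to 50 bases after the start, read 5′ to 3′ on the strand of the gene, with each CANNTG in capitals. Itga4 is at chr2:79255176-79255475, plus strand, and Itgb7 at chr15:102231886-102232185, minus strand.
Itga4: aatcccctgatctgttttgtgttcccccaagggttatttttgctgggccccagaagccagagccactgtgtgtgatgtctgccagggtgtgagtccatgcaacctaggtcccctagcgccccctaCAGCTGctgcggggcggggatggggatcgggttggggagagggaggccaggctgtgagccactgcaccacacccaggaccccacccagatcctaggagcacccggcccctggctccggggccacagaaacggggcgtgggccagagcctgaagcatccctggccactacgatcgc
Itgb7: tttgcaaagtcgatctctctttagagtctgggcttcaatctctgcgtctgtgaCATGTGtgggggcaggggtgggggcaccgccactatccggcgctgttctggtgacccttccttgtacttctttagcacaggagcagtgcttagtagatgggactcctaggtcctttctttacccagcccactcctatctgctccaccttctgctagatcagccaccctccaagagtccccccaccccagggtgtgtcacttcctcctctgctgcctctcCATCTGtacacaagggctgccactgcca
The Itga4 window held 1 E-box of the form CAGCTG, with its first base at −125 when the first transcribed base is counted as 0. The Itgb7 window held CATGTG at −197 and CATCTG at 22, and the form seen in Itga4 was not among them. The pattern CANNTG, which a search of either strand finds alike, was present in 72.3% of all 32851 promoters of this length. Its form CAGCTG was present in 16.3%. A promoter was found for 5 of the 10 integrin genes, and of the other 3, Itga2b held CAGCTG at −248 and another form, CAACTG, at −220, while the windows of Itgb1 and Itgav held no match. These matches describe letters in a window and say nothing of binding in ILCPs.

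Itgb1 encodes beta1, the other partner of alpha4 and the beta chain of most matrix receptors. It lies on chromosome 8 at 128685654 to 128733200, plus strand. Its levels were 48.6, 148 and 38.7 CPM in GFP+ and 51.7, 51.7 and 252 CPM in GFP- replicates 1, 2 and 3. The same 2 libraries that held the most Itga4, GFP+ replicate 2 and GFP- replicate 3, held the most Itgb1. The means were 78.5 ± 60.6 and 118 ± 116 CPM (SD, n = 3 each), with a log2 fold change of −0.59 ± 0.79 (SE; edgeR unadjusted p = 0.469). Without GFP- replicate 3 the log2 fold change of Itgb1 was 0.60.

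Itgae encodes alphaE (CD103), the E-cadherin receptor that pairs only with beta7, and lies on chromosome 11 at 73090583 to 73147446, plus strand. In replicates 1 and 2 it had 23.6 and 3.98 CPM in the GFP+ libraries and 7.90 and 29.6 CPM in the GFP- libraries. Replicate 3 had 0 counts in both groups, which allows up to 0.354 CPM in GFP+ and 0.233 CPM in GFP- at a floor of 3 counts. Libraries with and without Itgae RNA therefore occurred in both groups, which overlapped. The log2 fold change was −0.44 ± 2.00 (SE; edgeR unadjusted p = 0.83), and without GFP- replicate 2 it was 1.22. Haspin lies within Itgae on the opposite strand and stood at 0 to 27.02 CPM, with 24.1 CPM in GFP- replicate 3, where Itgae had no counts.

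Per length, alpha4 RNA exceeded the RNA of its partners. The level of Itga4 over that of Itgb7 and Itgb1 together had a median of 4.69 over the 6 libraries and ran from 1.37 in GFP+ replicate 3 to 7.98 in GFP+ replicate 2. With the union of exons as length the lowest value was 0.992. Of the beta chains that alpha4 can take, Itgb7 was above Itgb1 per kb in 5 of 6 libraries. The ratio of Itgb7 to Itgb1 per kb was 3.67, 1.25 and 12.1 in GFP+ and 3.45, 3.84 and 0.503 in GFP- replicates 1, 2 and 3. It was thus alike in both libraries of pair 1 and farthest apart in the libraries of pair 3. On the log2 CPM scale, where length cancels between groups, the ratio averaged 1.42 ± 1.63 in GFP+ and 0.40 ± 1.64 in GFP- ILCPs (SD, n = 3 each; exact two-sided permutation p = 0.5). With 3 libraries against 3 this test cannot give a p below 0.1. The ratio of Itga4 to Itgae, the alpha chains that share beta7, was 6.79 and 10.57 log2 units in GFP+ and 8.09 and 6.67 in GFP- replicates 1 and 2. In replicate 3 of both groups Itgae had 0 counts and the pseudocount sets the ratio, so no mean or test is given.

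Itgal and Itgb2 encode the chains of LFA-1, the leukocyte receptor for ICAM proteins. Itgal, on chromosome 7 at 127296260 to 127335138, plus strand, had 705, 1247 and 412 CPM in the GFP+ libraries and 746, 1037 and 1088 CPM in the GFP- libraries. GFP+ replicate 3 was the lowest and GFP+ replicate 2 the highest, so the GFP+ libraries enclosed those of the GFP- group. The log2 fold change was −0.28 ± 0.54 (SE; edgeR unadjusted p = 0.619). Itgb2, on chromosome 10 at 77530252 to 77565708, plus strand, had 187, 194 and 335 CPM in the GFP+ libraries and 206, 272 and 192 CPM in the GFP- libraries. It varied least of the 10 genes, with the highest library 1.79-fold above the lowest, against a median of 6.13-fold over the 9627 tested genes above 0 in all 6 libraries. Its log2 fold change was 0.10 ± 0.48 (SE; edgeR unadjusted p = 0.841), and −0.15 with scaling by totals alone. Itgal was above Itgb2 per kb in 5 of 6 libraries, with a median ratio of 2.16, and GFP+ replicate 3 was the exception at 0.70. The log2 ratio of Itgal to Itgb2 averaged 1.63 ± 1.22 and 2.09 ± 0.35 in GFP+ and GFP- ILCPs (SD, n = 3 each; exact permutation p = 0.8).

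Itgb3 encodes beta3, known from the vitronectin receptor alphaVbeta3 and the platelet fibrinogen receptor alphaIIbbeta3. It lies on chromosome 11 at 104608000 to 104670476, plus strand. Its levels were 584, 829 and 1112 CPM in GFP+ and 623, 687 and 272 CPM in GFP- replicates 1, 2 and 3. GFP+ replicate 3 was highest and GFP- replicate 3 lowest, as for Itgb7, and the other 4 libraries lay between them. The means were 842 ± 264 and 527 ± 223 CPM (SD, n = 3 each), with a log2 fold change of 0.68 ± 0.54 (SE; edgeR unadjusted p = 0.237). Without replicate 3 of both groups the log2 fold change of Itgb3 was 0.11.

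Itgb3 held the largest share of beta chain RNA per length in 5 of 6 libraries. Of the summed CPM per kb of Itgb1, Itgb2, Itgb3 and Itgb7 it made up 45.2%, 48.4% and 43.9% in GFP+ and 45.3%, 43.05% and 22.3% in GFP- replicates 1, 2 and 3. In GFP- replicate 3 Itgb1, at 31.3%, and Itgb2, at 30.6%, were above it. Itgb7 made up 15.8% to 28.02% over the 6 libraries, Itgb2 22.1% to 33.2% and Itgb1 2.32% to 31.3%. Among the 6 alpha chains Itga4 made up 57.6% to 74.8% and Itgal 23.6% to 36.5%, and each of the others at most 8.36%.

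**Figure D2:**
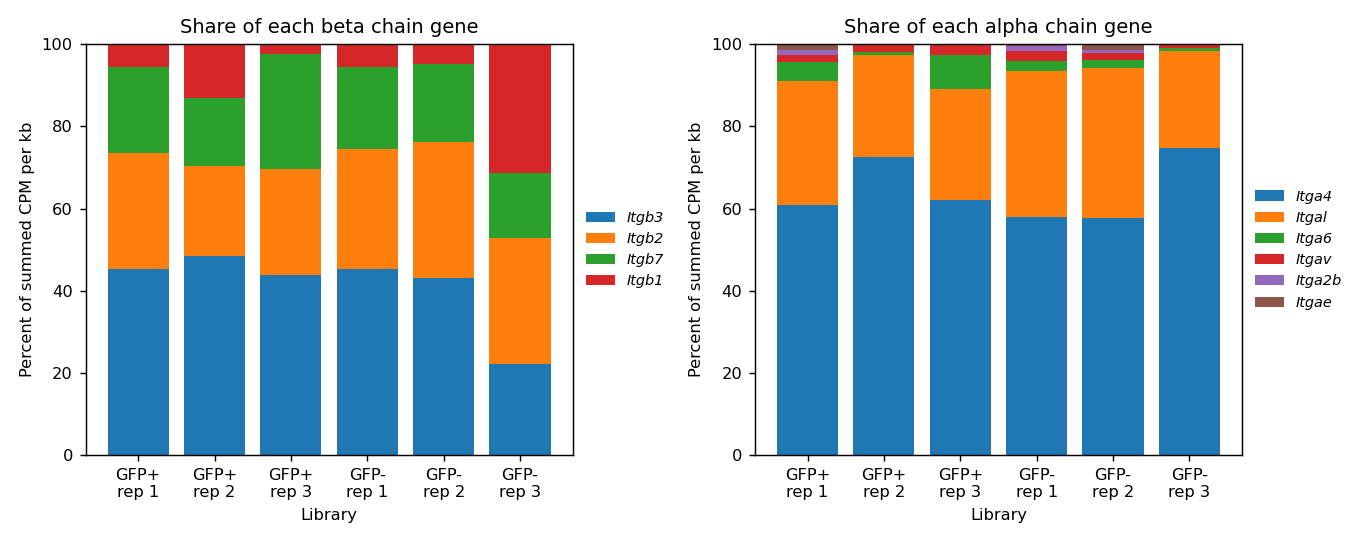
Percent of the summed CPM per kb of the 4 beta chain genes (left) and of the 6 alpha chain genes (right) that each gene made up, with 1 bar per library and no replicate error on a bar. Itgb3 takes 43.05% to 48.4% of the beta chains except in GFP- replicate 3, where it takes 22.3% and Itgb1 takes 31.3%.

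The partners of beta3 were far lower than beta3 itself. Itgav, which encodes alphaV and lies on chromosome 2 at 83724397 to 83806916, plus strand, had 55.6, 126 and 53.2 CPM in the GFP+ libraries and 68.7, 71.3 and 41.3 CPM in the GFP- libraries. GFP+ replicate 2 was above the other 5 libraries. The log2 fold change of Itgav was 0.37 ± 0.59 (SE; edgeR unadjusted p = 0.539). Itga2b encodes alphaIIb (CD41), the platelet and early progenitor chain, and lies on chromosome 11 at 102453297 to 102470122, minus strand. It had 319, 3 and 1 counts in GFP+ and 230, 270 and 124 counts in GFP- replicates 1, 2 and 3, or 20.2, 0.249 and 0.118 against 16.1, 12.4 and 9.63 CPM. GFP+ replicates 2 and 3 were thus at or under the floor of 3 counts, while GFP+ replicate 1 was above every GFP- library. The log2 fold change of −0.88 ± 1.63 (SE; edgeR unadjusted p = 0.599) depended on that library and was −5.98 without it (edgeR adjusted p = 0.43). With the replicate number as a block it was −4.17 in edgeR (adjusted p = 1.00) and −4.14 in DESeq2 (adjusted p = 0.0841), over a range of adjusted p from 0.0841 to 1.00 in the alternatives.

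Per kb, Itgb3 stood at 5.43 to 25.4 times Itgav and Itga2b together, with a median of 7.73, and the ratio was above 1 in 6 of 6 libraries. The log2 ratio of Itga2b to Itgb3 averaged −8.58 ± 3.28 in GFP+ and −5.24 ± 0.49 in GFP- ILCPs (SD, n = 3 each; exact permutation p = 0.3). With 3 and 1 counts of Itga2b in 2 GFP+ libraries, this difference of −3.34 depends on the pseudocount of 0.5 CPM and was −4.18 with 0.1 CPM and −2.35 with 2 CPM. Of 10 platelet and megakaryocyte markers measured, Nbeal2 stood at 123 to 709 CPM and was above Itgb3 in GFP- replicate 3. The other 9 summed to 0.497 to 37.2 CPM in GFP+ and 2.94 to 16.4 CPM in GFP- libraries. All 10 together summed to 124 to 558 and 362 to 713 CPM. The chemokine gene Ppbp and the von Willebrand receptor subunit Gp9 were at 0 in 5 of 6 libraries and Pf4 in 3 of 6. The 9 markers were highest in GFP+ replicate 1, which was also the library with the most Itga2b but not with the most Itgb3. The part of these markers in the values of Itgb3 and Itga2b was not tested.

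Itga6 encodes alpha6, a laminin receptor chain, and lies on chromosome 2 at 71745616 to 71858416, plus strand. Its levels were 88.6, 29.1 and 106 CPM in GFP+ and 44.2, 45.4 and 25.2 CPM in GFP- replicates 1, 2 and 3. GFP+ replicates 1 and 3 were above all GFP- libraries, and GFP+ replicate 2 was within their range. The means were 74.4 ± 40.2 and 38.3 ± 11.3 CPM (SD, n = 3 each), and the log2 fold change of 0.96 ± 0.66 was the highest of the 10 (SE; edgeR unadjusted p = 0.173, adjusted p = 0.998). In pairs 1, 2 and 3 it differed by 1.00, −0.63 and 2.04 log2 units.

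**Figure D3:**
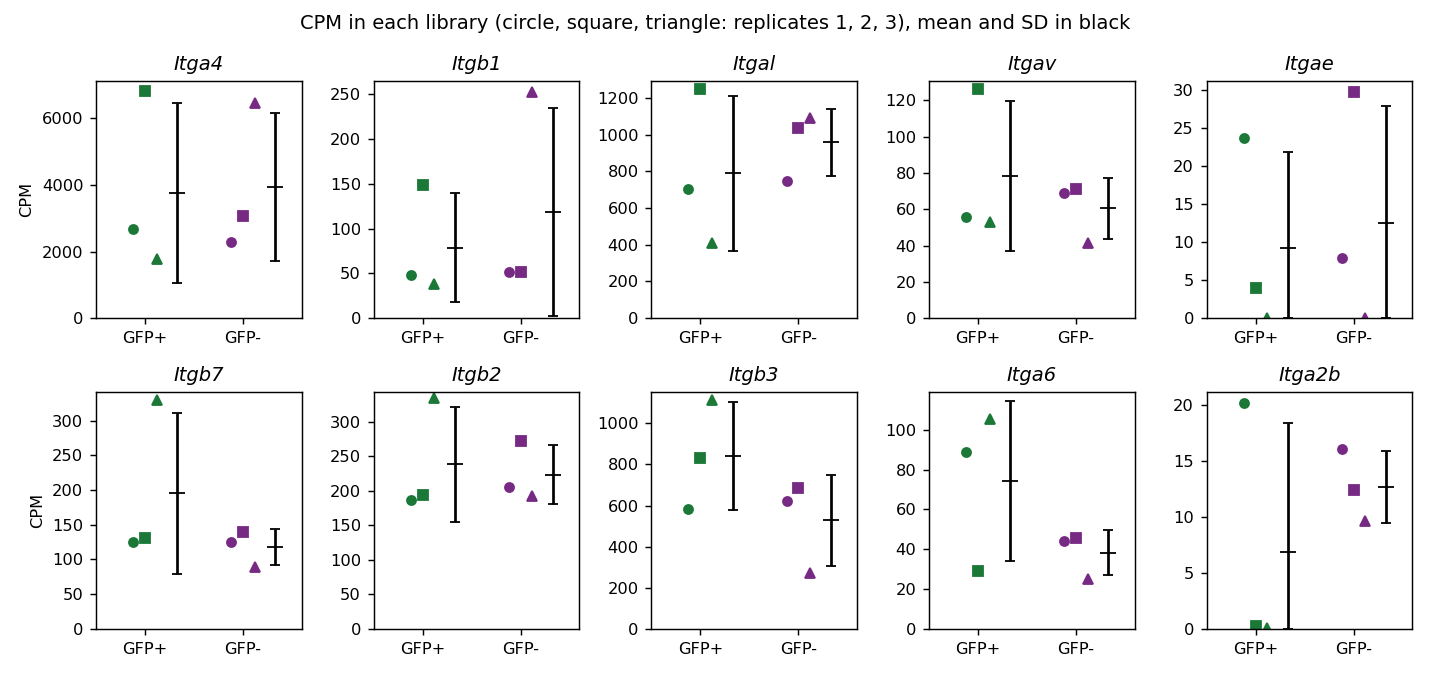
CPM of each integrin gene by group, with 1 panel per gene and its own axis from 0. Circles, squares and triangles are replicates 1, 2 and 3, and the black bars are the mean and SD of 3 libraries, drawn no lower than 0. The groups overlap in every panel. GFP+ replicate 3 is the highest library for Itgb7, Itgb2, Itgb3 and Itga6. It is the lowest for Itga4, Itgb1, Itgal and Itga2b, and is at 0 for Itgae together with GFP- replicate 3.

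By their place in GFP+ replicate 3, 7 of the genes fell into 2 sets, a grouping made after the values were seen. Itga4, Itgb1 and Itgal were lowest in GFP+ replicate 3, and Itgb7, Itgb2, Itgb3 and Itga6 were highest there. Itga2b, at 0.118 CPM, was also lowest there, and Itgae was at 0 in replicate 3 of both groups. These 2 genes were not placed in the sets. Over the 6 libraries, which share their mice in pairs, log2 CPM of Itga4 had a Pearson r of 0.943 with Itgb1 and of −0.673 with Itgb7, given as a description. Itgal had an r of 0.863 with Itga4 and of 0.720 with Itgb1. Itga2b, though also lowest in GFP+ replicate 3, had an r of −0.097 with Itga4, −0.078 with Itgb1 and 0.228 with Itgal. In the other set Itgb7 had an r of 0.864 with Itgb2, 0.825 with Itgb3 and 0.740 with Itga6. The rest of that set were lower, at 0.622 for Itgb2 with Itgb3, 0.586 for Itgb3 with Itga6 and 0.539 for Itgb2 with Itga6. GFP+ replicate 3 defined the sets, and both these correlations and the differences of pair 3 include that library. Neither therefore adds support to the sets. Itgal and Itgb2, the chains of LFA-1, had an r of −0.621, and Itgb7 and Itgae one of −0.288. The lowest r of any pair of the 10 was −0.884, for Itgal with Itga6, which are not partners, and that of Itgb1 with its partner Itga6 was −0.853. In pair 3 the log2 difference between GFP+ and GFP- libraries was −1.86 for Itga4, −2.69 for Itgb1 and −1.40 for Itgal, and 1.88, 0.80, 2.03 and 2.04 for Itgb7, Itgb2, Itgb3 and Itga6. In pair 1 those 7 genes differed by at most 0.22 log2 units, apart from Itga6 at 1.00. In pair 2 the log2 differences ran opposite to pair 3 for 6 of the 7, at 1.16 for Itga4, 1.51 for Itgb1, 0.27 for Itgal, −0.095 for Itgb7, −0.48 for Itgb2 and −0.63 for Itga6, while Itgb3 was at 0.27. The long transcripts of pair 3 were lower as a whole: the median log2 difference was −0.65 for 2672 tested genes with a longest transcript over 5000 bp, −0.47 for 4056 genes of 3000 to 5000 bp and −0.24 for 5320 genes under 3000 bp. Those of pair 1 were 0.076, 0.039 and −0.11, and those of pair 2 were 0.10, −0.11 and −0.43. The longest transcripts of Itga4 and Itgal measure 9767 and 5222 bp and those of Itgb7 and Itgb2 measure 2683 and 2970 bp, and Itgb1, Itga6 and Itgb3 have 3815, 4310 and 5784 bp. Of those over 5000 bp, Itga4 and Itgal were lower and Itgb3 was higher in the GFP+ library of pair 3. The part of length in these values was not tested.

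**Figure D4:**
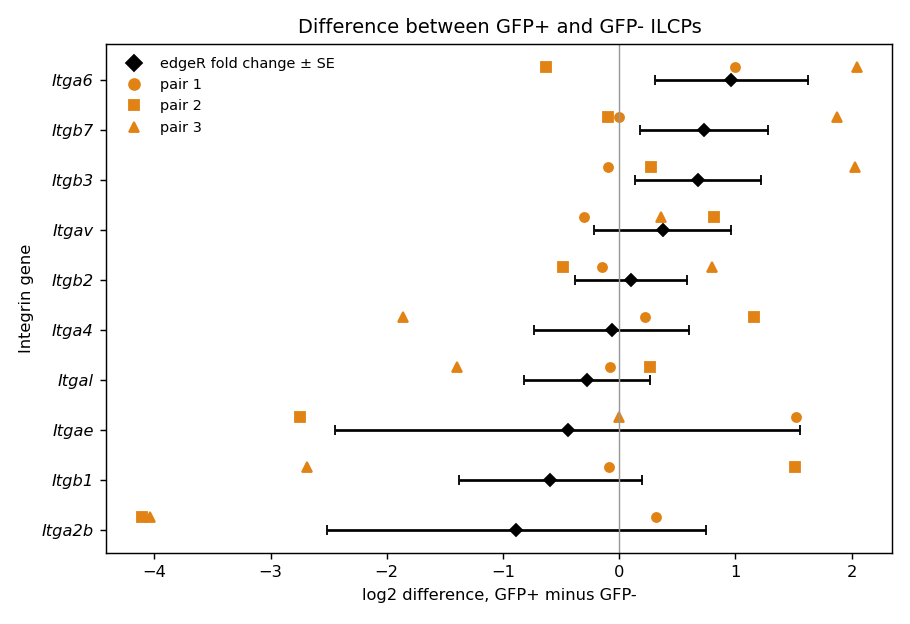
Log2 difference of each integrin gene between GFP+ and GFP- ILCPs. Black diamonds are edgeR fold changes with their SE, and orange circles, squares and triangles are the differences within pairs 1, 2 and 3 on the log2(CPM + 0.5) scale. Pair 3 lies far to the right for Itga6, Itgb7 and Itgb3 and far to the left for Itga2b, Itgb1, Itga4 and Itgal, while no gene has all 3 pairs on the same side of 0.

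Genes most like Itga4, Itgb7 and Itgae over the 6 libraries were taken from 10623 genes. For Itga4 they included Ccdc88c (r = 0.996) and Arel1 (r = 0.996). Arel1, for example, had 50.3, 244 and 25.5 CPM in the GFP+ libraries and 44.5, 57.6 and 251 CPM in the GFP- libraries, with the same high and low libraries as Itga4. For Itgb7 they were Icosl (r = 0.998), the ligand of the costimulator ICOS, Mrpl47 (r = 0.995), a mitochondrial ribosome protein, and Nars (r = 0.995), the asparaginyl-tRNA synthetase. Icosl was at 70.2 CPM in GFP+ replicate 3 and at 5.67 to 14.7 CPM elsewhere. For Itgae they were Kptn (r = 0.989), Inca1 (r = 0.988) and the cyclin Ccnl2 (r = 0.987), and Kptn and Inca1 had 0 counts in replicate 3 of both groups, as Itgae did. These are the highest of many correlations over only 6 libraries and are a description.

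No other subunit of the integrin family was called either. Of 17 such genes, 16 were measured and 12 tested, with 8 log2 fold changes above 0, 4 below and 0 called, and a median of 0.27. Over all genes tested 49% were above 0. Those of highest mean CPM were Itga5, the fibronectin receptor chain, at 0.118 to 118 CPM and Itga3, a laminin receptor chain, at 0 to 49.7 CPM. Itga1, a collagen receptor chain, stood at 27.4, 6.30 and 14.1 CPM in GFP+ and 4.54, 0 and 6.52 CPM in GFP- libraries and was higher in 3 of 3 pairs (edgeR unadjusted p = 0.223). Itgam, the myeloid chain CD11b, had 64.8 CPM in the first GFP+ library and no more than 6.08 CPM in any other (edgeR unadjusted p = 0.261). The macrophage genes Lyz2 and Csf1r had 712 and 81.9 CPM in that library and 812 and 81.8 CPM in GFP+ replicate 3, where Itgam was at 0, and their part in the value of Itgam was not tested.

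Of 24 genes that switch integrins between resting and active states, 22 were tested, with 14 log2 fold changes above 0 and 8 below, a median of 0.16 and 0 called. Tln1, which encodes talin, stood at 739, 1074 and 535 CPM in GFP+ and 757, 1230 and 1054 CPM in GFP- libraries, lower in GFP+ in 3 of 3 pairs (edgeR unadjusted p = 0.477). The Ras exchange factor Rasgrp1 stood at 461 to 1530 and 424 to 1161 CPM. Rap1b, a small GTPase that promotes integrin activation, stood at 105, 261 and 285 CPM in GFP+ and 93.4, 105 and 129 CPM in GFP- libraries and was higher in 3 of 3 pairs (log2 fold change 1.00 ± 0.53, SE; edgeR unadjusted p = 0.0891). Sharpin, known as an inhibitor of integrin activation, stood at 29.8, 13.8 and 21.1 CPM in GFP+ and 54.1, 60.1 and 66.2 CPM in GFP- libraries. Its groups did not overlap, as for 6.04% of tested genes in this direction, and its log2 fold change of −1.47 ± 0.63 (SE) had an unadjusted edgeR p of 0.0412 and an adjusted p of 0.998.

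Among the genes that link integrins to actin and to kinases, 24 of 26 were tested, with 16 log2 fold changes above 0 and 8 below, a median of 0.25 and 0 called. Without GFP+ replicate 3 the split was 12 and 12. Dock2 and Rac2, the Rac activator and the Rac GTPase of blood cells, had the highest mean CPM, at 808 to 1616 and 410 to 1237 CPM over the 6 libraries. Actn1, which encodes the actin cross-linker alpha-actinin-1, stood at 29.5, 64.6 and 6.95 CPM in GFP+ and 13.004, 2.52 and 6.75 CPM in GFP- libraries (edgeR unadjusted p = 0.0618). The adaptor gene Crkl was at 513 CPM in GFP+ replicate 3 and at 65.3 to 122 CPM elsewhere.

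Of 20 genes for integrin ligands, 16 were measured and 10 tested, with 5 above 0, 5 below, a median of 0.05 and 0 called. Lamc1, which encodes the laminin gamma1 chain, stood at 182, 384 and 169 CPM in GFP+ and 66.1, 135 and 69.96 CPM in GFP- libraries. The groups did not overlap, as for 3.16% of tested genes in this direction, and the log2 fold change of 1.44 ± 0.56 (SE) had an unadjusted edgeR p of 0.0269 and an adjusted p of 0.998. Fn1, which encodes fibronectin, stood at 66.7 to 318 and 101 to 253 CPM. Cdh1, which encodes E-cadherin, the ligand of alphaEbeta7, stood at 0 to 1.20 CPM in GFP+ and 0.275 to 6.29 CPM in GFP- libraries (edgeR unadjusted p = 0.202).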

How the data were processed

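RNA of sorted ILCPs was measured in 3 GFP+ and 3 GFP- libraries. Per the labels' protocols, total RNA was amplified as cDNA by single primer isothermal amplification, depleted of ribosomal RNA and sequenced in read pairs. Such amplification can raise the spread between libraries, and the labels do not say whether strand was kept. Values in the deposited table are estimated counts of each gene, not whole and not scaled to each other. Trimmomatic, kallisto, Bowtie2 and DESeq2 are named in the submitters' processing notes, with GRCm38 as the build. Per the file headers, the table also gives the authors' log2 fold changes and errors, a Wald score, p-values and a mean signal per gene of counts scaled by the authors.

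Estimated counts were rounded and tested with edgeR 4.0.16 in R 4.3.3 (quasi-likelihood test, robust, TMM scaling, filterByExpr, group as the only term, Benjamini-Hochberg adjustment at 0.05). DESeq2 1.42.0 was run beside it. TMM scaling also entered the CPM. A fold change above 0 means a higher GFP+ level. The SE of an edgeR log2 fold change was worked out as its absolute value over the square root of its F statistic. Log2 CPM carry a pseudocount of 0.5. Ratios were compared with exact permutation tests over libraries. Lengths came from GENCODE vM21 on GRCm38, for 98.8% of tested genes, and their limits of 3000 and 5000 bp were chosen after seeing the data. Floors are 3 counts per library and cover counting error only, as no molecular identifiers are mentioned. The 6 libraries limit what these tests can find.

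The labels give both libraries of a replicate number 1 pool of mice, which pairs them. Within pairs, deviations from group means correlated at 0.145, −0.125 and −0.147. The alternatives were other scalings, filters, thresholds, tests, pseudocounts and lengths, the replicate block, and each library and replicate left out.

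The members, the 4 pathway lists, the 10 marker lists and the naming rule were chosen with earlier results of these data known. The rule named all 10 members. From each pathway list it took the calls or, with none, the 2 genes of smallest p, and the 2 of highest mean. From each marker list it took the 2 of highest mean, of which those beside a result are given, and for Itga4, Itgb7 and Itgae the 3 genes most alike, of which 1 is not reported here. Other genes were named after their values were seen. Genes with symbols after Trappc10 in the alphabet, mitochondrial ones aside, were not analysed here, and 21 symbols read as dates are not named. Figures were drawn with matplotlib 3.10.9.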

Additional observations from a re-analysis of the deposited data

How the results depend on the processing

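With 6 libraries, none of the 10 integrin genes was called under any alternative. edgeR called 0 genes in each of its alternatives, leave-one-out included (0 to 0), while DESeq2 called 61 genes, 161 with the replicate block, and 105 without GFP+ replicate 3, a setting chosen after seeing the data. The replicate block changed no call of an integrin gene. Of 160 recomputed fold changes of the 10 genes, 142 kept their direction and 18 did not, of which all but Itgb2 at −0.15 with scaling by totals came from leaving out libraries. Leaving out 1 library gave log2 fold changes of −0.83 to 0.49 for Itga4, 0.11 to 1.02 for Itgb7, −1.44 to 0.60 for Itgb1, −2.62 to 1.22 for Itgae, −0.78 to 0.028 for Itgal, −0.23 to 0.32 for Itgb2, −0.16 to 0.61 for Itgav, 0.36 to 0.97 for Itgb3, 0.61 to 1.34 for Itga6 and −5.98 to −0.32 for Itga2b. Leaving out both libraries of a replicate gave −0.98 to 0.83 for Itga4, −0.054 to 1.08 for Itgb7, −1.80 to 0.93 for Itgb1, −2.88 to 1.57 for Itgae, −0.72 to 0.13 for Itgal, −0.33 to 0.39 for Itgb2, −0.018 to 0.70 for Itgav, 0.11 to 1.06 for Itgb3, 0.39 to 1.48 for Itga6 and −5.79 to −0.34 for Itga2b. The log2 ratios ranged from 0.07 to 1.81 for Itgb7 to Itgb1, −1.15 to 2.34 for Itga4 to Itgae, −0.99 to 0.20 for Itgal to Itgb2 and −5.22 to −2.23 for Itga2b to Itgb3 without 1 library, and from −0.76 to 2.33 for Itgb7 to Itgb1, −1.58 to 1.30 for Itga4 to Itgae, −1.07 to 0.41 for Itgal to Itgb2 and −5.22 to −1.98 for Itga2b to Itgb3 without both of a replicate. Those of Itga4 to Itgae rest on the pseudocount in replicate 3, where Itgae had 0 counts. With the replicate block the exact sign-flip p was 0.75 for Itgb7 to Itgb1, 1 for Itgal to Itgb2 and 0.5 for Itga2b to Itgb3. With 3 pairs it cannot be below 0.25. The cause of the changes of sign was not tested.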
